A study of Drosophila erecta with 23 samples.

Results

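Distant alternative promoters, pairs of start site clusters that serve the same gene from positions more than 2000 bp apart, were found at 238 genes of *Drosophila erecta*. Together they comprise 476 transcription start site clusters (TSCs, groups of neighbouring start sites treated as promoters) of the 22632 in the series, of which 13329 were assigned to a gene. A TSC assigned to several genes is listed under each, so the 22632 entries stand for 22463 positions and the 476 for 475. Of 8625 genes with a TSC, 2763 had at least 2. A gene entered the set when each of its 2 highest TSCs, by RPM (reads scaled to a common library total) summed over 22 libraries, held at least 20% of the gene's sum and reached at least 5 RPM in some library, and when their nearest edges lay more than 2000 bp apart. Members were therefore chosen by summed and maximal levels. How the balance between the promoters moved through time played no part in the choice.

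A promoter is the stretch of DNA at which RNA polymerase begins a transcript, and many fly genes have more than 1 of them. Alternative promoters can give transcripts with different first exons, 5′ leaders or, at times, different amino termini, and each promoter can answer to its own enhancers, so a gene can be used at different stages or in different tissues through different start sites. In a fly egg the first RNA is deposited by the mother, and the embryo's own genome takes over in the first hours of development.

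RAMPAGE, which sequences complementary DNAs that reach the capped 5′ end of the RNA and so maps and counts start sites, was applied to whole embryos of the wild-type reference genome strain, collected from population cages with no treatment. Embryos were collected in windows of 1 h and aged, which gave 23 time points from 0-1 h to 22-23 h after egg laying with 1 library each. There are no replicates, so the scatter of neighbouring hours stands in for the error and p-values measure that scatter alone. RNA of whole embryos does not tell fewer cells using a promoter from less RNA in each cell, nor RNA from the mother from RNA made by the embryo.

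Reads in TSCs ranged from 1043634 (12-13 h) to 13882184 (0-1 h) over the 22 libraries used, so 1 read was worth between 0.958 and 0.0720 RPM. The 7-8 h library held 142224 reads, with 7.03 RPM to a read, and was left out. The libraries of 4-5 h and 5-6 h carried RNA typical of the end of the series: 337 late TSCs held 11.3% and 6.98% of their reads, against 0.626% at 3-4 h and 0.0394% at 6-7 h. Of these 337 TSCs, 10 were among the distant promoters. Values at 4-5 h and 5-6 h are given below, and neither hour belongs to the windows that are tested against each other. Both libraries do enter the choice of members, the tests over time, the measures of the profiles and the scatter behind every p-value.

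The promoters of a pair lay a median of 6287 bp apart (quartiles 3112.5 and 11416.8 bp), from 2006 to 204972 bp. In 67 pairs the distance exceeded 10000 bp and in 14 pairs it exceeded 50000 bp. Exactly 2 TSCs were listed for 102 of the genes and 3 or more for 136, up to 16, yet the chosen pair held a median of 98.2% of the gene's summed RPM (lowest 56.7%). The pairs were spread over 8 scaffolds of FlyBase release 1.3, from 4 pairs on scaffold 4512 to 51 on scaffold 4784, with 127 on the plus and 111 on the minus strand. In 74 pairs no TSC of any kind lay in between. Another TSC of the same gene lay between the promoters of 69 pairs, and a TSC of another gene on the same strand between those of 11. In 9 pairs at least 1 promoter had a position that was also listed under another gene, and there the RNA cannot be told apart between the genes.

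At the edges of the rule, the second promoter held 20.1% of the sum in the last gene inside and 20.0% in the first outside. The lower of both maxima was 5.03 RPM just inside and 4.55 RPM just outside, and the distance was 2006 bp just inside and 1997 bp just outside. The files do not pair the gene identifiers with names, so pairs are identified by position, 1-based on release 1.3. For 81 of the 238 genes, the reads summed over TSCs were identical in every library to those of an entry in the deposited gene table. Of the pairs described, 2 with a gain and 2 with a loss are also given by that identifier, a choice made after their values were seen.

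The upstream promoter was the main promoter of 148 genes and the downstream one of 90. Over the 22 libraries the upstream promoters had a median mean level of 17.7 RPM, the downstream ones 13.0 RPM, beside 15.4 RPM for the 10372 TSCs with a gene that reached 5 RPM. Downstream promoters were the wider in 141 pairs, with a median width of 111 bp against 88 bp upstream (93 bp among the 10372). These numbers describe chosen members and were not tested. Upstream promoters were also spread more evenly over the hours than downstream ones, by the entropy of the profile, which would be 4.46 bits for equal use of all 22 libraries. It had a median of 4.07 bits upstream, 3.89 bits downstream and 4.06 bits among the 10372, and was higher upstream in 165 pairs. Downstream promoters also had fewer reads, with a median of 1308.5 against 1811. At no hour did 123 upstream and 85 downstream promoters fall under 1 RPM. The sum of both promoters had a median entropy of 4.14 bits, above that of either promoter in 129 pairs.

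Within a pair the promoters often reached their highest level at different times. The hour of the maximum was the same in 23 pairs, within 2 h in 76, and at least 10 h apart in 78, with a median difference of 6 h. The upstream promoter peaked earlier in 129 pairs and later in 86. Maxima at 0-1 h or 1-2 h were found for 51 upstream and 30 downstream promoters, and maxima from 19 h on for 23 upstream and 35 downstream ones. Divided into 0-4 h, 4-11 h, 11-19 h and 19-23 h, the maxima of both promoters fell in the same phase in 93 pairs, among them 30 with both at 0-4 h and 36 with both at 11-19 h. The most frequent combination of different phases was an upstream maximum at 0-4 h with a downstream maximum at 11-19 h, in 26 pairs, whereas the mirror image was seen in 16.

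The level of single promoters changed with time nearly everywhere, as it did throughout the series. By limma on log2(RPM + 1) with a spline of the start hour, 451 of the 476 distant promoters (225 upstream, 226 downstream) changed at a Benjamini-Hochberg adjusted p under 0.05, that is 94.7%, with 91.4 percent called among all 13986 TSCs tested. Across the 22 libraries the RPM profiles of the promoters of a pair had a median Pearson correlation of 0.317, from -0.867 to 0.967. The correlation was negative in 78 pairs (32.8%) and above 0.8 in 20. Among 142 genes whose promoters lay within 500 bp it had a median of 0.539, with 22.5% negative, and among 156 genes with promoters 500 to 2000 bp apart a median of 0.531, with 19.2% negative. Both profiles of a pair share the depth and composition of the same 22 libraries, and the values are descriptions with no test.

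The main question was whether the balance within a pair, the log2 ratio of (upstream RPM + 1) to (downstream RPM + 1), moved through embryogenesis. It changed over time in 154 of 238 pairs (64.7%, limma F-test of the spline, Benjamini-Hochberg adjusted p under 0.05), with 56.6 percent called among all 1574 genes whose top promoters both reached 5 RPM. Fitted curves of the distant pairs had a median span of 3.06 (log2), beside a median residual SD of 0.84. In the 154 pairs that passed, the span had a median of 5.02. A span of more than 5 was fitted in 78 pairs and one of less than 1 in 17, while 84 pairs did not pass the test. Of the 145 pairs with maxima in different phases 109 passed, and of the 93 with maxima in the same phase 45 did, both counts resting on the same profiles.

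Set beside the other pairs, 70.4% of the 142 close ones (within 500 bp) passed, 57.1% of the 156 at 500 to 2000 bp and 52.8% of the 1038 whose second promoter held less than 20% of the sum. The median spans were 2.38, 2.02 and 2.08, and 2.19 over all genes tested. The share that passed was thus higher in the close pairs, and the span larger in the distant ones. No test of these differences was made. Within the distant pairs, 52.5% of the 80 genes at 2006 to 3714 bp passed, 70.9% of the 79 at 3760 to 9260 bp and 70.9% of the 79 at 9311 to 204972 bp, with median spans of 2.15, 3.39 and 3.16. The shortest of these distances had the lowest share and the smallest span, and the middle and longest had the same share. In an alternative chosen after the data were seen, leaving out the 11 pairs with a same-strand TSC of another gene in between, 145 of 227 pairs passed (63.9%). In another, also chosen then, leaving out the 9 pairs with a promoter listed under another gene too, 148 of 229 passed (64.6%).

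**Figure D1:**
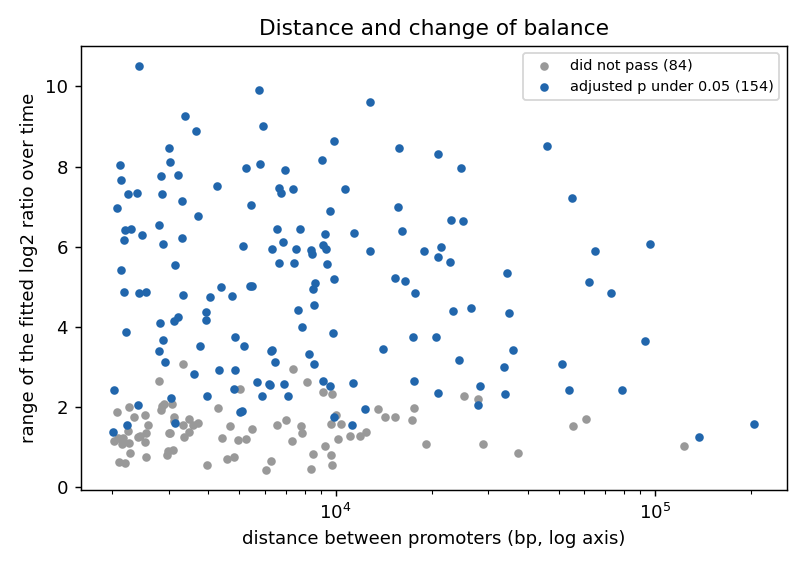
Range of the fitted log2 ratio of upstream to downstream promoter over time (vertical axis) against the distance between the promoters in bp (horizontal log axis), 1 point for each of 238 genes. Blue points, 154 genes, passed the test over time at an adjusted p under 0.05 and grey points, 84 genes, did not; wide ranges occur from the shortest distances to beyond 10000 bp.

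In terms of reads, use of a single promoter was most frequent at both ends of embryogenesis. A pair was counted as using a single promoter in a window when 1 promoter held at least 80% of their mean RPM and the pair had at least 20 reads. At 0-2 h this was so in 48.0% of 225 pairs, with 77 upstream, 31 downstream and 117 shared. In the windows from 2-4 h to 15-19 h the share was, in order, 40.7%, 28.7%, 28.9%, 22.2% and 24.1%. At 19-23 h it was 43.0% of 223 pairs, with 54 upstream, 42 downstream and 127 shared. The middle of the series was thus the time at which both promoters of these chosen pairs were most often read together. The rule asked for a share of the sum over 22 libraries, of which 0-2 h has 2 and 19-23 h has 4. It thus limits single use in the middle more than at the ends. How much of the low point comes from the rule was not tested.

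Windows of 2 and of 4 libraries differ in depth, and 4-6 h carries the late RNA, so the count was repeated by library for the 73 pairs with at least 20 reads in every library used. By this measure 58.9% of the 73 used a single promoter in the first library, 16.4% at 13-14 h and 46.6% in the last. By window, close pairs also had a low point in the middle, with 41.3% in the first, 19.0% at 11-15 h and 33.9% in the last. By library, the 43 close pairs with at least 20 reads in every library had 46.5% in the first and 11.6% at 13-14 h. In the last they had 25.6%, little above the 23.3% at 9-10 h. A low point in the middle was thus found in both kinds of pair, which were chosen by the same rule of shares. The late rise by library was smaller in the close ones. The median upstream share of the distant pairs was 66.6%, 63.2% and 58.5% at 0-2 h, 6-11 h and 19-23 h.

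**Figure D2:**
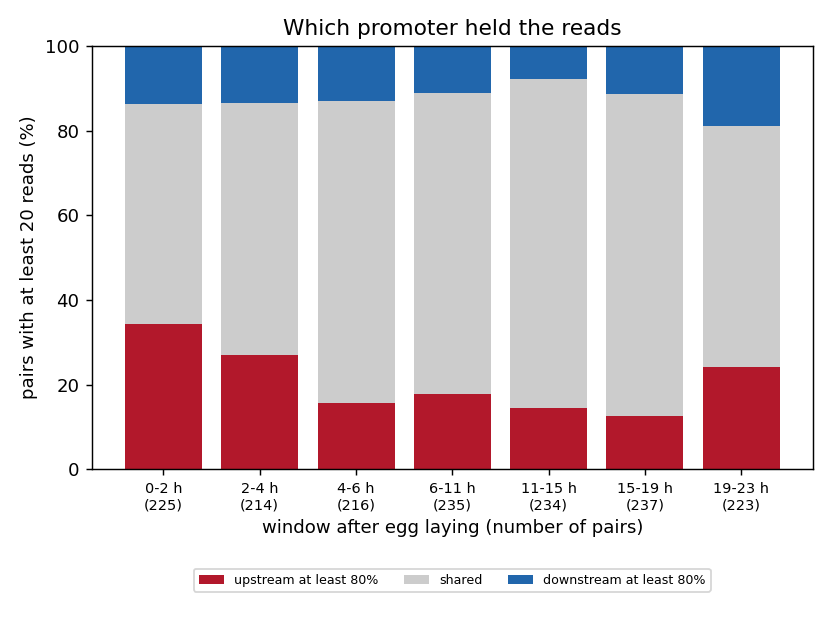
Percent of distant pairs with at least 20 reads (vertical axis) in which the upstream promoter held at least 80% of the mean RPM (red), the downstream promoter did (blue) or neither did (grey), by window after egg laying with the number of pairs in brackets. The grey part is smallest at 0-2 h, with 117 of 225 pairs, and largest at 11-15 h, with 182 of 234.

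Through the whole series 53 pairs exchanged promoters in full, with an upstream share of at least 80% in 1 window and at most 20% in another, and 50 did so without the window of 4-6 h. The window with the highest upstream share came before the one with the lowest in 33 of the 53 and after it in 20. All but 1 of the 53 passed the test over time, but both counts rest on the same profiles, so this adds no support. How often other genes made such exchanges is not given here. At the other end, 49 pairs stayed between 20% and 80% in every window with enough reads. A further 91 pairs reached 80% upstream but never 80% downstream, and 45 did the reverse.

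The first comparison of windows set 6-11 h, when the embryo transcribes its own genome, against 0-2 h, when RNA from the mother is known to prevail. The upstream promoter lost ground in 45 pairs, 18.9% of the members, with 10.7 percent called in that direction among the 1574 genes. It gained in 27 pairs, or 11.3%, with 8.83 percent called. Together 72 pairs (30.3%) passed limma at an adjusted p under 0.05, with 19.6 percent called over all genes. The values of the libraries at 0-2 h and 6-11 h did not overlap in 70 of the 72. That count rests on the values that gave the calls and has no share over all genes beside it, so it adds no support. Most of the 1574 genes, 1038, had a second promoter with less than 20% of the sum, and of these 15.7% passed. Of the 142 close pairs 28.2% passed (23 gains and 17 losses), near the share of the distant ones. Of the 156 pairs between close and distant 21.2% passed. Differences between these classes were not tested. In the 72 distant pairs the change had a median size of 2.77 on the log2 scale, from 1.34 up to a gain of 6.19 and a loss of -7.66. Over all 238 pairs the median was -0.14. Without 0-1 h, which leaves 1 library in the early window with a spread assumed to be like that of the others, 23 pairs passed, 6 gaining and 17 losing. Without 1-2 h, which leaves as few early libraries, 54 passed.

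Tested singly on log2(RPM + 1), 1 promoter of a pair passed in 99 pairs and both in 31. The upstream promoter fell and the downstream one rose in 7 pairs, the opposite was found in 4, both rose in 16 and both fell in 4, while neither passed in 108. Of the 99, a rise downstream was called in 31 and a fall upstream in 30, a rise upstream in 27 and a fall downstream in 11. The balance itself passed in 51 of the 99, so in the other 48 the promoters were not shown to move differently. Over all TSCs tested, 12.9 percent were called higher and 10.5 percent lower. Summed over both promoters, the mean RPM changed by less than 2-fold in 30 of the 72 pairs whose balance passed.

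The largest loss of the upstream promoter was on the minus strand of scaffold 4820, where the promoters (upstream 7646444 to 7646690, downstream 7643033 to 7643056) lay 3387 bp apart. The upstream promoter had 94.1 RPM at 0-1 h and 85.2 RPM at 1-2 h, against 1.54, 3.94, 4.16 and 5.00 RPM in the libraries from 6-7 h to 10-11 h. The downstream promoter had 2.52 and 3.50 RPM in the first libraries and 40.9, 26.7, 50.6 and 39.1 RPM in the later ones. Neither promoter's values overlapped between the windows. The balance changed by -7.66 ± 0.69 (log2, SE, limma adjusted p = 7.09e-08), with the upstream promoter falling (-4.35, adjusted p = 2.72e-05) and the downstream one rising (3.31, adjusted p = 1.38e-05). The exchange held to the end of the series, with an upstream share of 96.8% at 0-2 h and 7.70% at 19-23 h.

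On the plus strand of scaffold 4845 (upstream 2891945 to 2891985, downstream 2894857 to 2894881) the exchange was undone later. The upstream promoter had 61.5 and 64.8 RPM at 0-2 h and 4.16 to 6.17 RPM at 6-11 h, while the downstream promoter had 1.08 and 5.18 RPM and then 13.9 to 21.6 RPM. At 22-23 h they stood at 28.9 and 2.23 RPM, respectively. The balance moved by -5.77 ± 0.69 (log2, limma adjusted p = 1.44e-06) and then by 3.72 ± 0.56 from 6-11 h to 19-23 h (limma adjusted p = 1.04e-05).

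A further loss was one in which the upstream promoter remained in use. On the minus strand of scaffold 4690 (upstream 11652899 to 11652983, downstream 11641411 to 11641462) the upstream promoter had 121 and 110 RPM at 0-2 h and 44.4 to 66.1 RPM at 6-11 h, a change that did not pass (-1.04 on the log2 scale, limma adjusted p = 0.065). The downstream promoter had 1.3 and 8.68 RPM, then 55.9 to 114 RPM, and rose by 4.13 (limma adjusted p = 0.00050). The balance changed by -5.17 ± 0.91 (log2, limma adjusted p = 0.000196), the larger part of it through the downstream promoter. The downstream promoter was listed at 0 at 19-20 h, which allows up to 1.79 RPM at that depth, and at 11.0, 7.26 and 12.6 RPM in the last 3 libraries.

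The gene with the gene table identifier FBgn0015903, on the plus strand of scaffold 4845 (upstream 20812268 to 20812368, downstream 20828512 to 20828664), was alike in that its upstream promoter stayed well above 0. It had 185 and 177 RPM at 0-2 h and 49.4 to 67.0 RPM at 6-11 h, a fall of 1.56 on the log2 scale (limma adjusted p = 0.0069). The downstream promoter, 16143 bp away, had 3.75 and 16.7 RPM at first and 76.3 to 116 RPM at 6-11 h. The balance changed by -5.02 ± 0.66 (log2, limma adjusted p = 5.77e-06), and by 19-23 h the promoters had 12.0 to 26.1 RPM and 9.58 to 17.1 RPM, with an upstream share of 54.6%.

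The other 2 of the 6 largest losses lay on the minus strand of scaffold 4784 (upstream 12848534 to 12848561, downstream 12837724 to 12837815) and the plus strand of scaffold 4929 (upstream 17119416 to 17119544, downstream 17121716 to 17122059). In the former the upstream promoter went from 121 and 86.0 RPM to 20.8 to 31.1 RPM, and the downstream one from 0.576 and 3.89 RPM to 26.4 to 32.7 RPM, a change of balance of -5.37 ± 0.94 (log2, limma adjusted p = 0.000197). In the latter the upstream promoter went from 67.7 and 51.8 RPM to 3.08 to 12.9 RPM, and the downstream one from 0.648 and 3.37 RPM to 8.05 to 15.4 RPM. Its balance changed by -5.11 ± 0.87 (log2, limma adjusted p = 0.000154) and returned by 4.26 ± 0.71 at 19-23 h (limma adjusted p = 3.3e-05), when the upstream share was 98.7%.

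The largest gain of an upstream promoter was on the plus strand of scaffold 4512 (upstream 883448 to 883538, downstream 896345 to 896969), where the downstream promoter had 95.3 RPM at 0-1 h and 81.0 RPM at 1-2 h. It fell to 4.63, 1.71, 2.21 and 0.588 RPM at 6-11 h (-4.90 on the log2 scale, limma adjusted p = 8.7e-06). The upstream promoter had 0.216 and 1.81 RPM at first and then 0, 3.26, 5.40 and 14.1 RPM, which overlap, and its change of 1.28 did not pass by 6-11 h (limma adjusted p = 0.21). The balance changed by 6.19 ± 1.09 (log2, limma adjusted p = 0.000209). Later the upstream promoter reached 73.8 RPM at 14-15 h, so hours with little of either lay between the use of the downstream and of the upstream promoter.

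In contrast, both promoters of the next pair were in use throughout. On the minus strand of scaffold 4770 (upstream 4882499 to 4882559, downstream 4873313 to 4873363) the upstream promoter rose from 6.84 and 12.8 RPM at 0-2 h to 38.6, 68.0, 75.7 and 97.9 RPM at 6-11 h. The downstream promoter fell from 110 and 111 RPM to 3.86, 19.4, 18.4 and 24.4 RPM and then rose again, to between 216 and 328 RPM at 19-23 h. The balance moved by 5.60 ± 0.61 (log2, limma adjusted p = 4.97e-07) and back by -4.77 ± 0.50 (limma adjusted p = 7.82e-08). The downstream promoter thus held most reads at both ends of the series and the upstream one in the middle.

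On the plus strand of scaffold 4845 the promoters of a pair 54898 bp apart (upstream 19672488 to 19672589, downstream 19727488 to 19727573) crossed slowly. The upstream promoter had 0.360 and 2.85 RPM at 0-2 h and 8.48, 17.8, 29.4 and 45.6 RPM at 6-11 h, and the downstream one 85.9 and 85.5 RPM and then 49.4, 27.9, 25.4 and 19.7 RPM. In balance, the pair moved by 4.83 ± 0.74 (log2, limma adjusted p = 5.04e-05) and by 0.01 ± 0.60 afterwards (limma adjusted p = 0.99). On the minus strand of scaffold 4512 (upstream 262100 to 262270, downstream 253605 to 253696) the upstream promoter went from 1.37 and 7.12 RPM to 25.4 to 32.6 RPM, and the downstream one from 31.4 and 29.1 RPM to 3.82 to 11.1 RPM, a change of balance of 4.61 ± 0.83 (log2, limma adjusted p = 0.000235). In both pairs the groups of libraries did not overlap for either promoter.

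The gene with the gene table identifier FBgn0082585, on the plus strand of scaffold 4845 (upstream 18509885 to 18509927, downstream 18518499 to 18518631), gained mostly through its upstream promoter. That promoter had 10.2 and 16.8 RPM at 0-2 h and 84.8, 89.1, 137 and 76.7 RPM at 6-11 h (2.76 on the log2 scale, limma adjusted p = 0.00033), while the downstream one had 53.2 and 47.0 RPM and then 20.8 to 31.5 RPM, which did not pass (-0.85, limma adjusted p = 0.28). The balance rose by 3.61 ± 0.56 (log2, limma adjusted p = 5.35e-05). The last of the 6 gains, on the minus strand of scaffold 4784 (upstream 1474011 to 1474156, downstream 1464552 to 1464637), came about with little upstream RNA in either window. Its upstream promoter had 6.84 and 6.22 RPM and then 0, 2.06, 2.39 and 7.35 RPM, while the downstream one fell from 58.3 and 39.9 RPM to 0.294 to 1.54 RPM. Its balance shifted by 3.37 ± 0.87 (log2, limma adjusted p = 0.0069), a call lost with a pseudocount of 0.1 RPM and without 0-1 h.

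The second comparison set the end of embryogenesis, 19-23 h, against 6-11 h. Each window has 4 libraries here, where 0-2 h has 2. The upstream promoter lost ground in 61 (25.6%, with 20.1 percent called in that direction over the 1574 genes) and gained in 44 (18.5%, with 13.7 percent called). In all 105 pairs passed (44.1%, with 33.8 percent called over all genes). The libraries did not overlap in 92 of them, a count that again rests on the values behind the calls and adds no support. Of the close pairs 40.1% passed (21 gains and 36 losses), and of those between close and distant 33.3%. Of the genes whose second promoter held less than 20% of the sum 30.6% passed. Differences between these classes were not tested here either. In the 105 distant pairs the change had a median size of 3.40 on the log2 scale, from 1.07 up to a gain of 6.71 and a loss of -7.87. Over all 238 pairs the median was 0.15. By library total, the summed RPM of both promoters changed by less than 2-fold in 50 of the 105. This count depends on the scaling, given the shift of all promoters described below, and has no count from other pairs beside it. A quasi-binomial model of the reads called 68 pairs here, with 22 gains, and 86 pairs in the comparison of 6-11 h with 0-2 h, 60 of them among the 72, so which comparison has more calls depends on the model. The share it called over all genes in these comparisons is not given here, so the counts do not set the members apart from the series.

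Which promoter moved could be read only against a shift of all promoters. By library total the median TSC changed by -0.92 on the log2 scale between these windows, and with TMM factors, which centre most TSCs, by 0.00. The medians of the distant promoters were -0.99 and 0.09. Over all TSCs 48.9 percent were called lower and 21.2 percent higher by library total. Both promoters fell in 72 pairs and both rose in 13 by library total. With TMM factors 26 of the 72 still fell at both promoters, 11 at the upstream and 18 at the downstream promoter alone and 17 at neither, while the 13 again rose and both rose in 36 in all. Opposite moves were also fewer with TMM factors: the upstream promoter fell and the downstream one rose in 25 pairs (12 with TMM factors), and the reverse held in 14 (10 with TMM factors). The scaling cancels in the balance, save for the pseudocount.

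The largest loss of the upstream promoter at the end of the series was on the plus strand of scaffold 4845 (upstream 4870153 to 4870289, downstream 4891236 to 4891270, 20946 bp apart). The downstream promoter had 0.771, 3.94, 4.07 and 3.82 RPM at 6-11 h and 157, 277, 275 and 464 RPM at 19-23 h, while the upstream promoter had 37.6 to 67.1 RPM and then 15.5 to 15.7 RPM. The log2 ratio changed by -7.87 ± 0.63 (log2, limma adjusted p = 2.62e-09). The rise downstream was 6.16 by library total (limma adjusted p = 2.5e-09) and 7.33 with TMM factors. The upstream fall, -1.71 by library total (limma adjusted p = 8.4e-05), was -0.46 with TMM factors and did not pass there (limma adjusted p = 0.21). In the libraries from 3-4 h to 6-7 h the downstream promoter had 1.58, 79.8, 33.1 and 0.771 RPM, the course of the late TSCs named above.

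A pair on the minus strand of scaffold 4644 (upstream 1908605 to 1908803, downstream 1902753 to 1902841) had the lowest correlation of all, -0.867. Its upstream promoter had 172 to 194 RPM at 0-4 h, 80.9 to 114 RPM at 6-11 h and 7.15 to 14.5 RPM at 19-23 h. The downstream promoter had 3.17 to 10.7 RPM at 0-4 h, 1.54, 26.6, 31.7 and 33.8 RPM at 6-11 h and 366 to 511 RPM at 19-23 h. In balance, the pair moved by -7.65 ± 0.63 (log2, limma adjusted p = 3.03e-09), after a change of -2.30 ± 0.78 between the earlier windows (limma adjusted p = 0.0367). A TSC of another gene on the same strand lay between these promoters.

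The gene with the gene table identifier FBgn0261794, on the plus strand of scaffold 4845 (upstream 21175442 to 21175981, downstream 21178408 to 21178541), exchanged promoters over 2426 bp. The downstream promoter was listed at 0 at 6-7 h, which allows up to 2.31 RPM, had 0.294 to 2.57 RPM in the other libraries of 6-11 h, and 75.0, 108, 89.7 and 124 RPM at 19-23 h. Its upstream counterpart had 23.3 to 35.0 RPM and then 5.19 to 12.5 RPM. Its balance shifted by -7.44 ± 0.69 (log2, limma adjusted p = 1.60e-08) and the upstream share from 96.3% to 8.10%. At 4-5 h and 5-6 h the downstream promoter had 29.5 and 20.4 RPM.

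The remaining large loss was on the minus strand of scaffold 4770 (upstream 3238942 to 3239020, downstream 3235075 to 3235281), where the downstream promoter had at most 3.19 RPM at 6-11 h and 117, 104, 62.7 and 17.8 RPM at 19-23 h. Its highest value was 174 RPM at 17-18 h, above every value of the last window. The log2 ratio changed by -6.95 ± 0.98 (log2, limma adjusted p = 3.76e-06). In each of these 4 losses the downstream promoter rose under both scalings, and in each it was also higher at 4-5 h and 5-6 h than at 3-4 h and 6-7 h.

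The largest gain of the upstream promoter late in the series was on the minus strand of scaffold 4929 (upstream 17065667 to 17065760, downstream 17049852 to 17049906). It came from the downstream promoter, which had 83.3, 236, 383 and 299 RPM at 6-11 h and 0, 2.00, 1.74 and 1.48 RPM at 19-23 h (-6.69 on the log2 scale, limma adjusted p = 5.7e-08). The upstream promoter had 16.6 to 57.6 RPM and then 20.8 to 44.1 RPM, with a change of 0.02 (limma adjusted p = 0.97), though with TMM factors it was higher by 1.28 (limma adjusted p = 0.0052). In balance, the pair moved by 6.71 ± 0.72 (log2, limma adjusted p = 1.16e-07). The downstream promoter had an earlier maximum of 558 RPM at 3-4 h. The quasi-binomial model of reads did not call this pair.

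On the minus strand of scaffold 4784 (upstream 16414914 to 16414929, downstream 16408039 to 16408159) the downstream promoter had 38.5 to 63.2 RPM at 6-11 h and was listed at 0 in every library from 17-18 h on. Against the 3 reads that a count of 0 allows in each library, it was at least 34.0-fold lower at 19-23 h than at 6-11 h. Upstream, there were 1.54, 12.2, 24.2 and 27.6 RPM at 6-11 h and 14.2 to 27.4 RPM at 19-23 h. The fitted change of balance was 6.36 ± 0.75 (log2, limma adjusted p = 3.36e-07), a size that depends on the pseudocount, and this call too was lost in the quasi-binomial model.

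The remaining gains among the 4 largest came mostly from the upstream promoter itself. On the minus strand of scaffold 4770 (upstream 8424101 to 8424127, downstream 8418212 to 8418299) it had 0, 1.54, 2.21 and 3.82 RPM at 6-11 h and 67.3, 39.6, 35.4 and 42.3 RPM at 19-23 h, while the downstream promoter went from 14.7 to 22.6 RPM down to 2.23 to 5.52 RPM. This upstream promoter is also listed under another gene. The balance changed by 6.34 ± 0.79 (log2, limma adjusted p = 6.81e-07) and the profiles had a correlation of -0.845. The gene with the gene table identifier FBgn0011288, on the minus strand of scaffold 4784 (upstream 23593468 to 23593687, downstream 23547074 to 23547489, 45978 bp apart), had an upstream promoter with 0, 5.14, 6.11 and 2.65 RPM at 6-11 h and 44.1, 87.6, 86.5 and 100 RPM at 19-23 h. Its downstream promoter was the one in use early, with 97.3 and 92.6 RPM at 0-2 h, 20.0 to 44.0 RPM at 6-11 h and 3.57 to 20.5 RPM at the end. The log2 ratio changed by 6.03 ± 0.66 (log2, limma adjusted p = 1.25e-07). The upstream promoter of both pairs rose under either scaling.

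**Figure D3:**
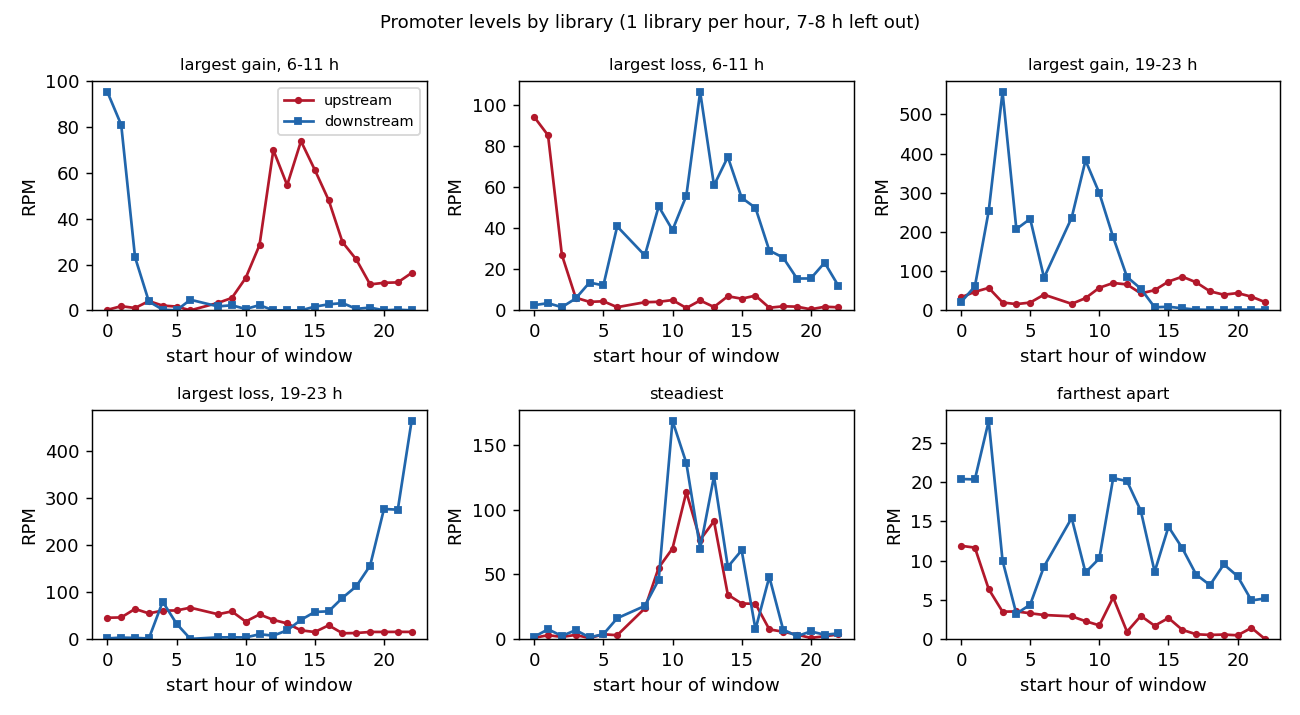
RPM by library (vertical axis) against the start hour of the 1 h window (horizontal axis) of the upstream (red circles) and downstream (blue squares) promoter of 6 pairs, 1 library per hour, 7-8 h left out. The pair with the largest early loss exchanges 94.1 RPM upstream for 40.9 RPM downstream by 6-7 h, the steadiest pair rises and falls with both promoters, and the pair farthest apart keeps the downstream promoter above the upstream one in all libraries but 4-5 h.

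Taking both comparisons side by side, 28 pairs passed only between 0-2 h and 6-11 h, 61 only between 6-11 h and 19-23 h, 44 in both and 105 in neither, though 28 of these 105 passed the test over time. The comparisons share the libraries of 6-11 h, so their values are not independent. Of the 44, the direction turned in 26, with 14 pairs in which the upstream promoter first lost and then gained and 12 in which it first gained and then lost. It was kept in 18, with 13 losses and 5 gains in both steps.

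**Figure D4:**
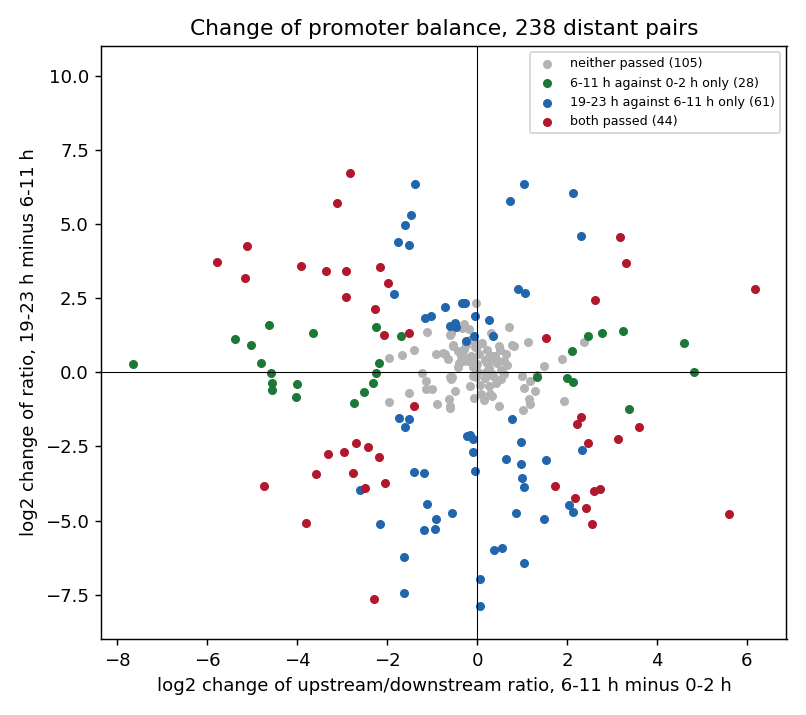
Change of the log2 ratio of upstream to downstream promoter from 0-2 h to 6-11 h (horizontal axis) and from 6-11 h to 19-23 h (vertical axis), 1 point per gene; positive values mean that the upstream promoter gained. Grey, 105 pairs, passed neither test, green, 28, passed the first, blue, 61, the second and red, 44, both; the axes share the libraries of 6-11 h.

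Distance alone did not separate the promoters of all genes in time. The steadiest pair among those with a mean of at least 20 RPM at both promoters was on the plus strand of scaffold 4845 (upstream 21559016 to 21559088, downstream 21565146 to 21565655, 6057 bp apart). Both promoters were low at first, with 1.08 to 3.33 RPM upstream and 1.94 to 7.64 RPM downstream at 0-4 h, and rose together to 113 RPM at 11-12 h and 168 RPM at 10-11 h before they fell to 3.71 and 4.45 RPM at 22-23 h. The fitted balance spanned 0.42 on the log2 scale (limma adjusted p = 0.981) and the profiles had a correlation of 0.884. Single hours departed from this, such as 16-17 h with 27.3 RPM upstream and 7.64 RPM downstream.

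The next steadiest pairs were read at both promoters through most of the series. On the minus strand of scaffold 4929 (upstream 7953696 to 7953839, downstream 7943648 to 7943948) the upstream promoter ranged from 29.0 to 154 RPM and the downstream one from 3.48 to 58.8 RPM, and the balance spanned 0.56 (log2, limma adjusted p = 0.924). On the plus strand of scaffold 4784 (upstream 16216279 to 16216465, downstream 16222745 to 16222991) both levels fell late, from 221 RPM upstream at 9-10 h to 13.4 RPM at 22-23 h and from 93.5 RPM downstream at 10-11 h to 4.45 RPM. The balance of that pair spanned 0.64 (log2, limma adjusted p = 0.955), with an upstream share between 65.1% and 82.4% in all windows. A p that misses the threshold does not show that a balance was constant.

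The 3 pairs farthest apart also had small changes. Other long distances went with larger ones, such as spans of 6.06 at 96764 bp and 5.88 at 65072 bp (log2). At 61079 bp the span was 1.71 and did not pass (limma adjusted p = 0.128). The promoters 204972 bp apart, on the minus strand of scaffold 4784 (upstream 3693772 to 3693948, downstream 3488691 to 3488799), had a share of 36.6% upstream at 0-2 h and 8.43% at 19-23 h, with a span of 1.58 (log2, limma adjusted p = 0.0108). Between them lay 5 TSCs of other genes on the same strand and 9 on the opposite strand, and the upstream promoter is listed under another gene of the set too, as the upstream promoter of a pair 65072 bp apart. Which gene its RNA belongs to was not tested. At 137469 bp, on the minus strand of scaffold 4929 (upstream 23966086 to 23966245, downstream 23828427 to 23828616), no TSC of another gene lay between. This pair was among the more highly expressed, with 14.2 to 166 RPM upstream and 42.4 to 176 RPM downstream, a correlation of 0.771 and a span of 1.25 (log2, limma adjusted p = 0.0303). At 123458 bp, on the plus strand of scaffold 4845 (upstream 387345 to 387671, downstream 511130 to 511269), the upstream share stayed between 73.9% and 81.5% and the span of 1.01 did not pass (log2, limma adjusted p = 0.402).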

How the data were processed

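RAMPAGE libraries of whole embryos, 1 for each of 23 h, were analysed. Read pairs had been mapped by the authors with STAR (version not given in the sources used here) to the *D. erecta* assembly of FlyBase (release 1.3), and TSCs called on the pooled reads of the series, so a TSC need not be used at every hour. Values are RPM as deposited, relative to the reads of all listed TSCs, so reads of the 330 entries that share a position count under each gene. The list of positions also has a score deposited for each TSC, of unstated meaning, which was not used; start, end and strand were. The deposited gene table, also in RPM, was used only to match identifiers, and the aligned gene table of the authors was not used. No sample column was left unused (0).

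All 379172 nonzero values (100%) came out as whole reads when divided by what 1 read is worth (tolerance 0.02 reads). Read counts recovered in this way gave depth and the alternative count models, which called 836 of 1574 pairs over time (quasi-binomial) and 11203 of 13986 TSCs (edgeR 4.0.16, quasi-likelihood). Around the fitted curves, read shares scattered by a median of 5.94 times the binomial variance, above 1 in 234 of 238 pairs, so counting error alone understates the error. Reads carry no molecular identifiers, and limits for a count of 0 (3 reads) cover counting error only.

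The balance was tested with limma 3.58.1 (R 4.3.3, trend on the weaker promoter) on log2 ratios with a pseudocount of 1 RPM, which understates changes of low promoters, by a spline over the hours (natural cubic, 4 df) and by window means; the window fit gave both contrasts. All genes whose 2 highest TSCs reached 5 RPM were fitted, with Benjamini-Hochberg adjustment over them and a threshold of 0.05. Libraries inside a window are consecutive hours, not replicates. Only the limma fit of the balance was tried on simulated data, with independent noise in each library, which real consecutive hours need not have. Its outcome is not given here and does not bear on the other models. Python 3.11.15, numpy 2.4.6, pandas 2.3.3 and scipy 1.17.1 were used.

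The members, windows and lists were chosen with earlier results of these data known. Pairs named are, among those that passed, the 6 largest gains and 6 largest losses of the first contrast and the 4 and 4 of the second, the 3 steadiest with at least 20 RPM at both promoters, and the 3 farthest apart. A list of genes known for alternative promoters could not be applied because the identifiers have no names here. No promoter sequence was used here.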

Additional observations from a re-analysis of the deposited data

Results flagged for a closer look

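The 7-8 h library entered none of the comparisons because of its depth, yet it held 2303 reads in the distant promoters, and 152 of the 476 promoters had more than the 3 reads that a count of 0 allows. In the 30 pairs with at least 20 reads there, the upstream share differed from that of 6-7 h and 8-9 h together by a median of 9.64 percentage points, and by at most 20 points in 23 of the 30.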

How the results depend on the processing

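The count of pairs whose balance changed over time stayed within 1.5 times of 154 under every alternative run and lay between 147 and 156 when each library was left out in turn. Each setting with a list of calls kept between 141 and 154 of the 154 pairs. Counts of calls in this section are of members alone, with no share over all genes beside them. For 6-11 h against 0-2 h, 46 pairs passed an adjusted p under 0.01, 15 of them gains, and 16 gains passed with a pseudocount of 0.1 RPM; leaving out each library gave 23 to 75 pairs, 6 to 29 gains and 17 to 46 losses, the lowest without 0-1 h, beside 54 pairs without 1-2 h. For 19-23 h against 6-11 h, the quasi-binomial model called 68 pairs and 22 gains, all 68 among the 105, and leaving out each library gave 94 to 111 pairs, 34 to 49 gains and 56 to 63 losses. Single promoters that changed numbered 439 to 455. The set held 396 genes at 10% of the sum, 139 at 30% and 139 over 5000 bp, as the limits dictate, and 238 without 4-5 h and 5-6 h, 231 of them shared. No named pair reversed, and of 580 values 576 kept their call. Unless named here, causes were not tested. No paired analysis was possible because each time point has 1 library. Depth limits promoters at under 3 reads, which is up to 2.87 RPM at 12-13 h.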

Other observations

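Some profiles held isolated hours far from their neighbours, named here after their values were seen. In the pair on the minus strand of scaffold 4784 with its upstream promoter at 12848534 to 12848561, the downstream promoter stood at 0.859 RPM at 14-15 h, between 35.5 and 43.7 RPM in the libraries of the hours before and after. In the pair on the plus strand of scaffold 4929 with its upstream promoter at 17119416 to 17119544, the upstream promoter stood at 1.19 RPM at 19-20 h, after 26.5 RPM at 18-19 h and before 30.04 RPM at 20-21 h. Single hours without replicates carry no error of their own, and the cause of these dips was not tested.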
